A study of Mus with 10 samples.

Results

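The PIM kinases are the products of *Pim1*, *Pim2* and *Pim3*, and all 3 genes were found by name among the 24564 genes of the count table. Type 1 innate lymphoid cells (ILC1s), tissue-resident lymphocytes that make interferon-γ, were sorted from the livers of C57BL/6 mice aged 6 to 8 weeks, and either sex could be used. The study compared 5 libraries from Ncr1+/+ mice with 5 from Ncr1gfp/gfp mice, in which *gfp* stands in place of *Ncr1*, the gene of the activating receptor NKp46. The question was what the loss of NKp46 changes in these cells. ILC1s were gated as NK1.1+ cells with CD49a and without CD49b, in Ncr1+/+ mice by NKp46 staining and in Ncr1gfp/gfp mice by GFP in its place, so that the gate and the genotype cannot be told apart, and the sources do not state whether a library held 1 mouse or several. The family was chosen on the genotype difference itself, because *Pim2* was already known to be among the genes lower in Ncr1gfp/gfp ILC1s. For the PIM genes the difference between the genotypes is therefore given as a description without p-values, and where the calls of the fit across all genes are stated for them, these are part of the choice and support nothing.

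PIM kinases are serine/threonine kinases that are active as soon as they are made. Their activity is set mainly by how much of the short-lived mRNA and protein a cell holds, and cytokine receptors that signal through JAK kinases and STAT transcription factors raise their transcription. In lymphocytes they promote survival, growth and protein synthesis by phosphorylating targets such as the cell death protein BAD and the translation repressor 4E-BP1, in part in parallel with the kinase AKT. *Pim1* and *Pim2* are known for their induction by cytokines in lymphocytes, and *Pim2* also for induction through NF-κB.

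The total count was between 15796253 and 22623133 per library. Counts were put on a common scale (CPM) with TMM normalization, which corrects for library size and composition, and 3 counts corresponded to between 0.132 and 0.19 CPM. The targeted gene *Ncr1* had 2029 ± 99.97 CPM in Ncr1+/+ and 259 ± 97.5 CPM in Ncr1gfp/gfp ILC1s (SD, n = 5 each). Of 9 liver ILC1 markers, 8 were matched in the table, and their summed level was 4253 to 4541 CPM in Ncr1+/+ and 4289 to 4540 CPM in Ncr1gfp/gfp libraries. Of these 8, *Il7r* was the only one called different between the genotypes, and it was lower in Ncr1gfp/gfp ILC1s. The similar sums also hold *Itga1*, the gene of the gate marker CD49a, which was higher without overlap. It was at 732.5 to 804.6 CPM in Ncr1+/+ and 928.4 to 1012 CPM in Ncr1gfp/gfp libraries, a log2 fold change of 0.32. The log2 fold changes of the others lay between -0.19 (*Cxcr6*) and 0.09 (*Tnfsf10*). *Xist*, the RNA of the inactive X chromosome in female cells, had at most 20 counts in any library, while the 4 Y-linked genes examined were counted in all 10, with at least 693 counts each. This bears on *Pim2*, which is X-linked. In RNA from sorted cells in bulk, fewer cells of a type and less RNA per cell cannot be told apart.

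*Pim1*, the founding member of the family, is listed at chr17:29627990-29632404 on the plus strand and has 1753 bases of exon. The build of these coordinates is not named in the table and they are not those of GRCm38. The level of *Pim1* was 334, 293, 338, 371 and 322 CPM in Ncr1+/+ replicates 1 to 5. In Ncr1gfp/gfp replicates 1 to 5 it was 259, 233, 266, 262 and 262 CPM. Every Ncr1gfp/gfp library was therefore below every Ncr1+/+ library. The means were 332 ± 28.2 and 256 ± 13.4 CPM (SD, n = 5 each). In the edgeR fit the log2 fold change, here and throughout Ncr1gfp/gfp relative to Ncr1+/+, came to -0.37 with a standard error (SE) of 0.06, or 77.2% of the Ncr1+/+ level.

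*Pim2* is listed at chrX:7455432-7460558 on the plus strand and has 2041 bases of exon. Its level was 187, 184, 220.1, 289 and 165 CPM in Ncr1+/+ replicates 1 to 5. In Ncr1gfp/gfp replicates 1 to 5 it was 126, 120, 106, 128 and 140.0 CPM, again with no overlap between the genotypes. The means were 209 ± 48.7 and 124 ± 12.3 CPM (SD, n = 5 each), and the fit gave a log2 fold change of -0.75 with an SE of 0.11, or 59.3% of the Ncr1+/+ level. Replicate 4 was the highest Ncr1+/+ library for both *Pim1* and *Pim2*, and without it the log2 fold changes were -0.33 and -0.61.

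*Pim3* is listed at chr15:88692624-88696156 on the plus strand and has 2419 bases of exon. Its level was 40.8, 51.3, 28.7, 38.9 and 30.9 CPM in Ncr1+/+ replicates 1 to 5 and 47.4, 40.6, 25.9, 31.1 and 30.5 CPM in Ncr1gfp/gfp replicates 1 to 5. These values overlapped, with 1 Ncr1gfp/gfp library below the lowest Ncr1+/+ library. The fit gave a log2 fold change of -0.12 with an SE of 0.16, and the 95% interval reached from -0.43 to 0.19. A decrease of the size seen in *Pim1* lies within these limits.

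**Figure D1:**
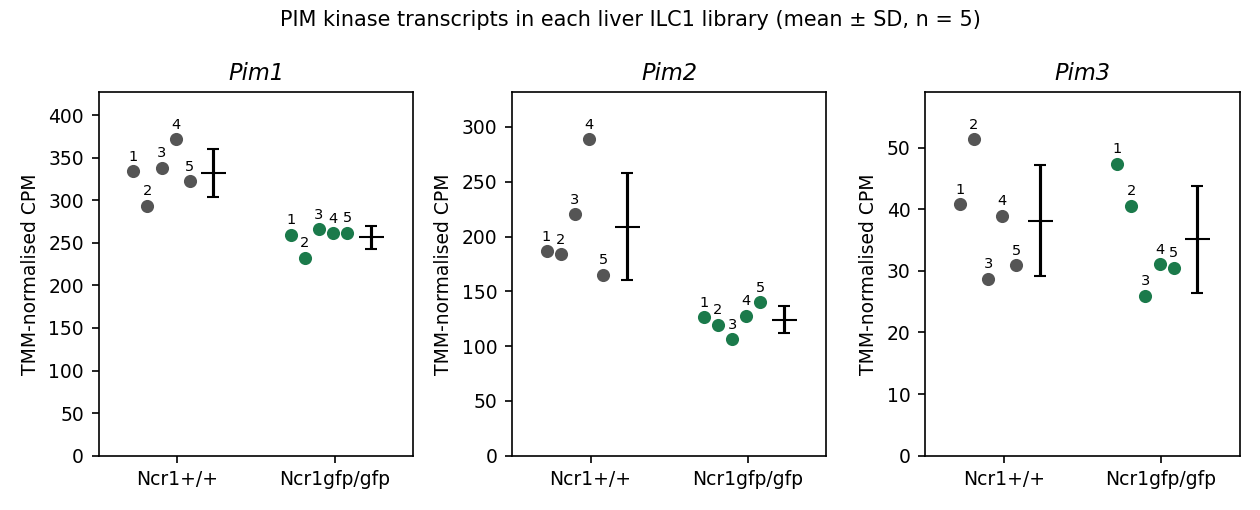
TMM-normalised CPM (vertical axis, from 0) of *Pim1*, *Pim2* and *Pim3* in each of the 5 Ncr1+/+ and 5 Ncr1gfp/gfp libraries, numbered by replicate, with the mean and SD of each genotype at the side. The genotypes are separate for *Pim1* (lowest Ncr1+/+ library 293, highest Ncr1gfp/gfp library 266) and *Pim2* (165 against 140.0), and they overlap for *Pim3*.

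In the fit across all genes, a gene was called at an adjusted p-value under 0.05 together with a fold change above 1.5 or below 0.7. All 3 PIM genes passed the filter on low counts. Called lower was 1 of the 3, *Pim2*, against 0.532% of the 11463 tested genes, and 0.733% of tested genes were called in either direction. *Pim1* passed the limit on the adjusted p-value but not the one on the fold, since its fold change was 0.772. The adjusted p-value alone was passed in the lower direction by 2 of the 3 genes and by 0.785% of tested genes. The same 2 genes had no overlap between the genotypes, as did 1.82% of tested genes in that direction. These counts include the contrast by which the family was chosen, and nothing is read from them. Over all tested genes, the median log2 fold change was 0.00, and 49.3% of genes were below 0.

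**Figure D2:**
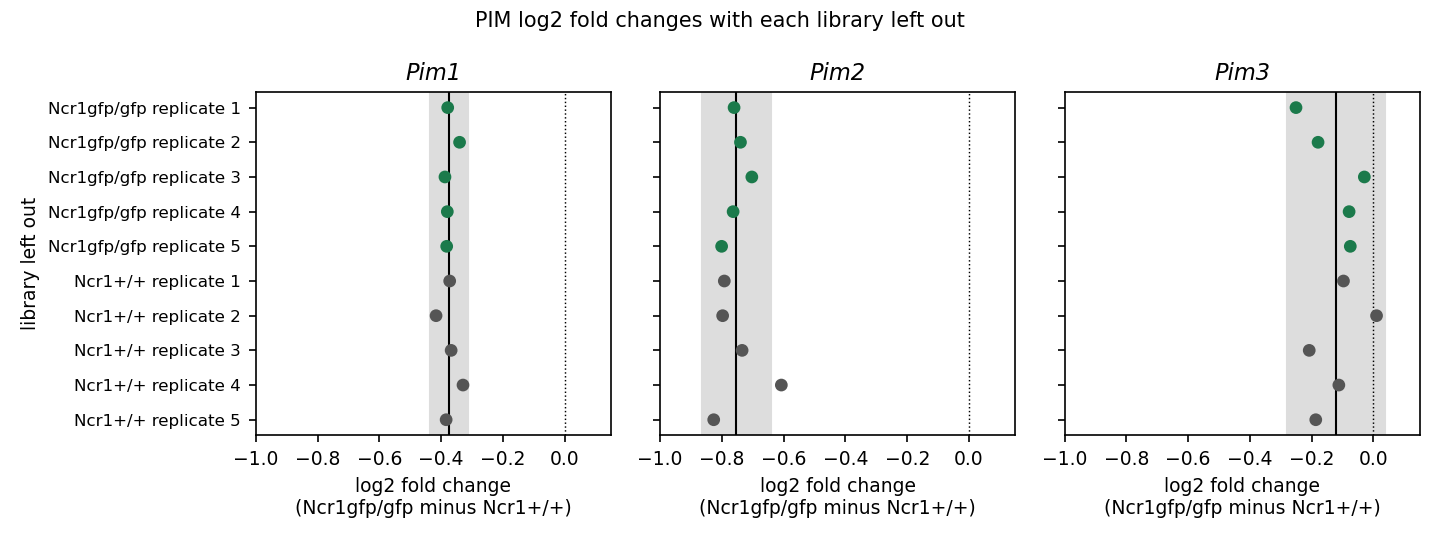
Log2 fold change of each PIM gene (Ncr1gfp/gfp minus Ncr1+/+, horizontal axis) when the library named on the vertical axis is left out. The black line is the value with all libraries, the grey band 1 standard error to either side, and the dotted line 0. The points lie between -0.42 and -0.33 for *Pim1*, between -0.83 and -0.61 for *Pim2* and between -0.25 and 0.01 for *Pim3*.

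How the PIM genes ranked among themselves was not used to choose them, and it was tested. Levels were compared per kilobase of exon. The order was *Pim1*, *Pim2*, *Pim3* in 10 of 10 libraries. *Pim1* was at 189 ± 16.1 CPM per kb in Ncr1+/+ and 146 ± 7.65 in Ncr1gfp/gfp ILC1s, *Pim2* at 102 ± 23.9 and 60.8 ± 6.02, and *Pim3* at 15.8 ± 3.71 and 14.5 ± 3.59 (SD, n = 5 each). The log2 difference between *Pim1* and *Pim2* was 1.09 ± 0.27 over the libraries (SD, n = 10), a 2.13-fold higher level of *Pim1*. Between *Pim2* and *Pim3* it was 2.398 ± 0.50, or 5.27-fold, and between *Pim1* and *Pim3* 3.49 ± 0.40, or 11.2-fold (SD, n = 10 each). No neighbours in the order were within their spread. Each of the 3 differences had p = 0.00195 in a two-sided exact paired permutation test, also after adjustment over the 3 pairs, which is the smallest p that 10 libraries allow. This p measures how steady the order was over libraries. A counting bias fixed to a gene would have the same sign in every library and pass the test too.

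Against the other tested genes, the mean level per kb of *Pim1* was above 98.6% of them in Ncr1+/+ and 97.9% in Ncr1gfp/gfp ILC1s. *Pim2* was above 96.2% and 91.7%, and *Pim3*, with a level in the middle of the range, above 60.5% and 57.6%. The summed level of the 3 genes was 278 to 369 CPM per kb in Ncr1+/+ and 208 to 231 CPM per kb in Ncr1gfp/gfp libraries. *Pim1* made up 61.8% ± 3.401 of this sum in Ncr1+/+ and 66.04% ± 2.78 in Ncr1gfp/gfp ILC1s, *Pim2* 33.0% ± 3.58 and 27.4% ± 2.00, and *Pim3* 5.20% ± 1.51 and 6.56% ± 1.62 (SD, n = 5 each). The ratio of *Pim2* to *Pim1* counts, which does not depend on the normalization, was 0.558, 0.626, 0.651, 0.777 and 0.513 in Ncr1+/+ replicates 1 to 5. In Ncr1gfp/gfp replicates 1 to 5 it was 0.487, 0.513, 0.400, 0.489 and 0.534, so that the ratios of replicate 5 of Ncr1+/+ and replicates 2 and 5 of Ncr1gfp/gfp met.

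**Figure D3:**
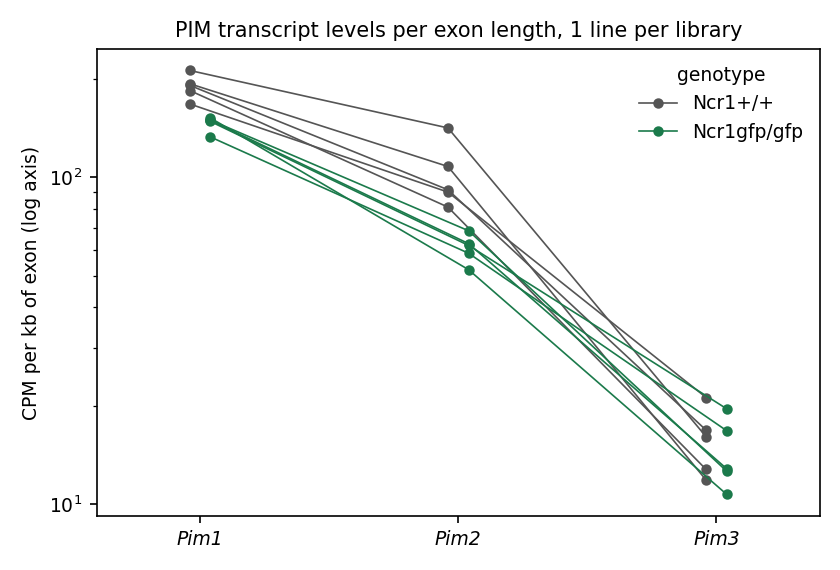
Level of each PIM gene in CPM per kb of exon (log axis), with 1 line for each library, coloured by genotype. Every line falls from *Pim1* through *Pim2* to *Pim3*, and the genotypes are apart at *Pim1* and *Pim2* and mixed at *Pim3*.

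The 3 genes also differed in how far libraries of the same genotype spread. The coefficient of variation of *Pim1* was 8.49% in Ncr1+/+ and 5.23% in Ncr1gfp/gfp ILC1s, and that of *Pim3* was 23.6% and 24.8%. *Pim2* had 23.3% in Ncr1+/+ but 9.91% in Ncr1gfp/gfp ILC1s, and the difference was not tested. Without Ncr1+/+ replicate 4 the value for *Pim2* in Ncr1+/+ ILC1s was 12.1%, and without Ncr1gfp/gfp replicate 2 that for *Pim1* in Ncr1gfp/gfp ILC1s was 1.05%. Counting error alone would give between 1.24% and 3.98% for these 6 values.

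Whether the members varied together inside a genotype was examined with each library's log2 CPM as a deviation from its genotype mean. Over the 10 libraries, *Pim1* and *Pim2* had r = 0.62 (exact permutation within genotypes, p = 0.130, adjusted over 3 pairs 0.339) and rho = 0.58 (p = 0.117, adjusted 0.175 in the same exact test). Without the 2 libraries farthest from the median of *Pim1*, r was 0.81 (exact permutation test, p = 0.0833, adjusted 0.25). Without Ncr1+/+ replicate 4, the highest for both genes, r was 0.24 (adjusted p = 0.817, exact permutation test). *Pim1* and *Pim3* had r = -0.45 (p = 0.226, adjusted 0.339) and rho = -0.55 (p = 0.115, adjusted 0.175), and r turned to 0.13 without 2 libraries (p = 0.814, exact permutation test) and was -0.15 without Ncr1+/+ replicate 2. *Pim2* and *Pim3* had r = 0.06 (p = 0.888) and rho = 0.05 (p = 0.895, exact permutation test), and r was -0.19 without 2 libraries. None of the 3 pairs passed the adjusted test. With the replicate number as a block, *Pim1* and *Pim2* had r = 0.76 and *Pim1* and *Pim3* r = 0.38, although same-numbered libraries did not deviate together. The block makes the 2 libraries of a number mirror images of each other. The permutation test does not hold there, and its p is not given.

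The genes with the most similar deviations were looked for among 8255 genes with a mean of at least 10 CPM, by Pearson's r over the 10 libraries, which share their depth and amplification with every gene. For *Pim1* these were *Zscan2*, *Baz2a*, *Gramd1a*, *Fgd3* and *Pcgf2*, with r between 0.89 and 0.92. For *Pim2* they were *Cdc42bpg*, *Furin*, *Tmem265*, *Mgat5* and *Epn1*, with r between 0.83 and 0.88. *Furin*, a protease that cleaves precursor proteins, was the only one of these 5 that was itself called, at a log2 fold change of -0.54. For *Pim3* they were *Cct8*, *Guk1*, *Wdr74*, *Paxx* and *Setd6*, with r between 0.90 and 0.93. No gene was on more than 1 of the 3 lists, and *Pim2* ranked 296 among the genes most like *Pim1*. As the highest of 8255 values over only 10 libraries, these r are high by selection alone. They were not tested, and no link to the PIM genes is read from them.

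The genes next to *Pim2* on the X chromosome, named after their values were seen, are *Otud5*, a deubiquitinase that ends 1680 bases before it, and *Slc35a2*, a Golgi transporter of UDP-galactose that starts 812 bases after it. *Otud5* had 222 ± 11.8 CPM in Ncr1+/+ and 210.4 ± 8.61 CPM in Ncr1gfp/gfp ILC1s, which edgeR put at -0.07 on the log2 scale (SE 0.06) with an adjusted p of 0.702. *Slc35a2* had 28.1 ± 3.68 and 25.3 ± 4.31 CPM, at -0.15 (SE 0.13) with an adjusted p of 0.748 from edgeR. Both overlapped between the genotypes. The spans of *Btbd35f15* and *Btbd35f16*, listed on the other strand, run over *Pim2*, but both genes had 0 counts in every library. No listed gene overlaps *Pim1* or *Pim3*.

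The list of genes placed above the PIM kinases held cytokine receptors and JAK-STAT proteins. Of 18 such genes, all were tested, 4 were called lower in Ncr1gfp/gfp ILC1s and 0 higher in edgeR's quasi-likelihood test. Over all tested genes, 0.532% were called lower. The median log2 fold change of the list was -0.08, and 15 of the 18 were below 0, against 49.3% of all tested genes. This list and those below were chosen with earlier results of these data known. The paper had already reported *Il2ra*, *Il7r* and *Il18r1* as lower from the same libraries, so nothing is read from these shares. The called genes were all receptor chains, the IL-2 receptor α chain *Il2ra*, the IL-7 receptor α chain *Il7r*, and both IL-18 receptor chains, *Il18r1* and *Il18rap*. The paper read out IL-2 and IL-7 signaling by STAT5 but IL-18 signaling by P38. Of the 4 called genes, *Il2ra* and *Il7r* thus belong to the receptors read out by STAT5. *Il2rb* and *Il2rg*, further chains of the IL-2 receptor, were not called, at -0.12 and -0.06 (adjusted p = 0.117 and 0.798 from edgeR). The values of *Il2rb* were lower without overlap. *Il18rap*, which the IL-18 receptor needs to signal, had 442 ± 45.3 CPM in Ncr1+/+ and 291 ± 51.3 CPM in Ncr1gfp/gfp ILC1s (SD, n = 5 each). This was -0.60 on the log2 scale (SE 0.10) with an adjusted p of 0.00145 in edgeR, and its values did not overlap. The log2 fold changes of *Il2ra*, *Il18r1* and *Il7r* were -1.24, -1.10 and -0.97, with overlap between the genotypes for *Il7r*. *Il12rb2*, a chain of the IL-12 receptor, had the highest value of the list at 0.13 (adjusted p = 0.334 from edgeR). None of the 4 JAK kinase genes or the 5 STAT genes was called.

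Of 14 other genes known to be induced through STAT5, 2 were called lower and 0 higher, against 0.532% of all tested genes called lower. The median log2 fold change was 0.02, and 7 of the 14 were below 0, against 49.3% of all tested genes. The called genes were *Il2ra*, which is also in the list of receptors, and *Socs3*, a feedback inhibitor of cytokine signaling, at -0.76. *Gzmb*, which encodes the cytotoxic protease granzyme B, had the highest value at 0.55 (SE 0.11) with an adjusted p of 0.00813 in edgeR, and was below the limit on the fold. Without Ncr1gfp/gfp replicate 4 or replicate 5 it passed that limit too and was called higher, so that 3 genes of the list were called. By flow cytometry, the paper reported significantly lower granzyme B protein in Ncr1gfp/gfp ILC1s. In these libraries *Gzmb* RNA went the other way. Its level was 2091 ± 130.5 CPM in Ncr1+/+ and 3071 ± 740.5 CPM in Ncr1gfp/gfp ILC1s (SD, n = 5 each), with overlap. Why RNA and protein differed in direction was not tested. *Cish*, a STAT5 target that feeds back on IL-2 signaling and is named here after its values were seen, had 169 ± 16.2 and 177 ± 36.9 CPM (0.06 on the log2 scale, SE 0.11, with an adjusted p of 0.901 from edgeR).

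Of 15 NF-κB subunits and targets of NF-κB feedback, 0 were called in edgeR's quasi-likelihood test, and likewise 0 with DESeq2 and with limma-voom. The share called over all tested genes was 0.733% in edgeR. At an unadjusted p-value under 0.05, 7 of the 15 passed, against 11.4% of all tested genes. Without Ncr1+/+ replicate 5, or with *Xist* as a covariate, 2 were called, *Nfkbiz* and *Tnfaip3*. The median log2 fold change was -0.19, the lowest of the 6 lists, and 13 of the 15 genes were below 0, against 49.3% of all tested genes. Lower without overlap were 3 of the 15, against 1.82% of all tested genes. Beside *Nfkbiz* these were *Rela*, the gene of P65, at -0.21 and *Traf1* at -0.25 (adjusted p = 0.0994 and 0.0713 from edgeR). The list was chosen with earlier results known, and nothing is read from these counts. *Nfkbiz*, which encodes the inducible nuclear protein IκBζ, had 137 ± 18.3 CPM in Ncr1+/+ and 98.6 ± 7.72 CPM in Ncr1gfp/gfp ILC1s (SD, n = 5 each) without overlap. Its value of -0.47 (SE 0.08) with an adjusted p of 0.00393 in edgeR passed the limit on the p-value only. *Cd69*, an early activation antigen, had the highest value at 0.10. By gene set enrichment over ranked genes of these libraries, the paper reported lower NF-κB signaling in Ncr1gfp/gfp ILC1s. It also measured P65 phosphorylation after anti-NKp46 treatment, and IL-2Rα with NF-κB inhibited or P65 knocked down. A count of single called genes is a different measure from these.

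Among the genes of 15 PIM substrates, 14 were tested and 0 were called with edgeR, DESeq2 or limma-voom. An unadjusted p-value under 0.05 in edgeR was reached by 2 of the 14, against 11.4% of all tested genes. The median log2 fold change was -0.05. The values reached from -1.10 for *Cxcr4*, the receptor of the chemokine CXCL12, to 0.11 for *Mdm2*, which encodes a ubiquitin ligase of p53. *Cxcr4* was low in these cells, at 3.79 ± 1.37 CPM in Ncr1+/+ and 1.77 ± 1.13 CPM in Ncr1gfp/gfp ILC1s (SD, n = 5 each), and its difference had an adjusted p of 0.331 (edgeR). PIM kinases act on these substrates as proteins, which RNA counts do not show.

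Of 10 genes that act on the stability or translation of PIM mRNA and protein, 1 was called lower and 0 higher, with a median of -0.11. The share called lower over all tested genes was 0.532%. The called gene was *Zfp36*, which encodes an RNA-binding protein that speeds the decay of mRNAs with AU-rich elements. It had 189 ± 51.6 CPM in Ncr1+/+ and 126 ± 10.4 CPM in Ncr1gfp/gfp ILC1s (SD, n = 5 each), with overlap, which edgeR put at -0.58 on the log2 scale (SE 0.12) with an adjusted p of 0.0179. The call was lost without Ncr1+/+ replicate 1 and without Ncr1gfp/gfp replicate 3, and it was not made by DESeq2 or limma-voom. *Eif4e*, the cap-binding translation factor, had the highest value at 0.14. Of 14 genes of the AKT and mTOR branch, which shares substrates with the PIM kinases, 0 were called with edgeR, DESeq2 or limma-voom. Against 11.4% of all tested genes, 2 of these 14 had an unadjusted p-value under 0.05 in edgeR. Their median was -0.02, with *Sgk1*, a kinase related to AKT, at -0.84 (adjusted p = 0.270) and the ribosomal S6 kinase gene *Rps6kb1* at 0.20 (adjusted p = 0.207, both from edgeR).

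**Figure D4:**
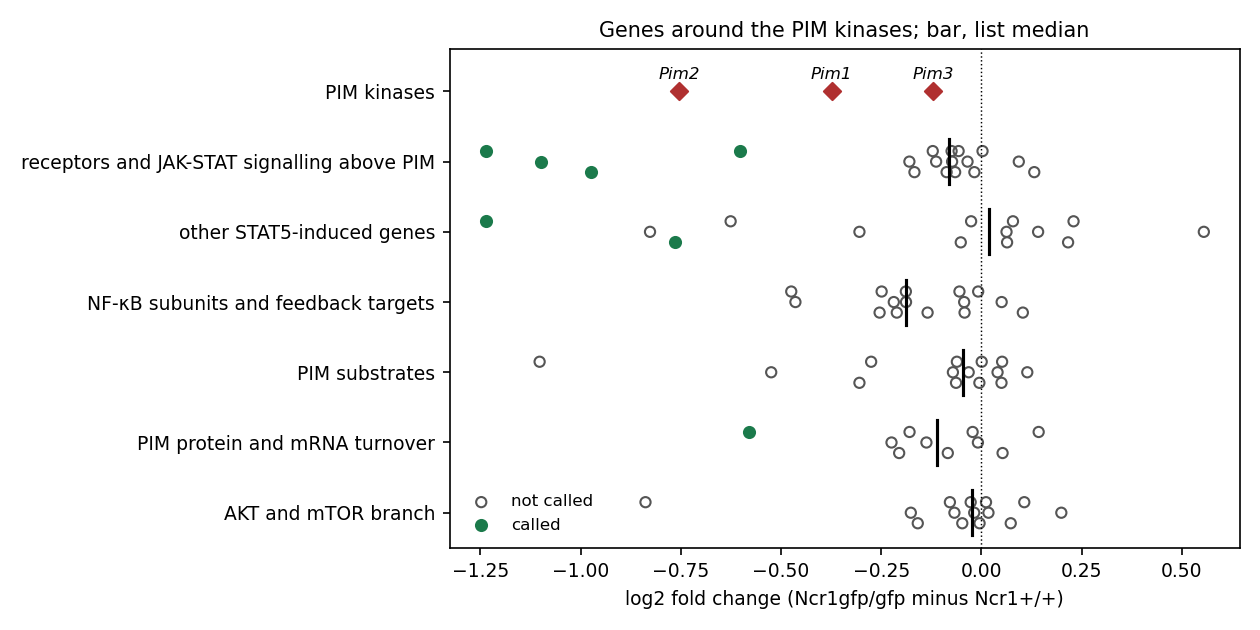
Log2 fold change (Ncr1gfp/gfp minus Ncr1+/+, horizontal axis) of the PIM genes (diamonds) and of each tested gene of the 6 lists (filled circles, called, open circles, not called, bars, list medians). Of the 4 called receptor genes, *Il2ra*, *Il18r1* and *Il7r* lie below *Pim2* and *Il18rap* above it, the called *Socs3* (-0.76) lies beside *Pim2* (-0.75), and the list medians lie between -0.19 and 0.02.

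The summed marker levels were apart between the genotypes in 2 of the 6 lists for cell types other than ILC1s. The summed level of 7 T cell markers was 461 to 579 CPM in Ncr1+/+ and 633 to 835 CPM in Ncr1gfp/gfp libraries, without overlap. *Cd3e* and *Cd8a* were called higher, 2 of the 5 that could be tested, against 0.733% of all tested genes called in either direction. Most of this sum was *Cd3g*, at 442 to 793 CPM over the libraries, and without it the sums were still apart, at 9.14 to 26.6 and 35.9 to 99.4 CPM, while *Cd4* was at most 4.46, *Cd5* at most 2.80 and *Cd8b1* at most 0.841 CPM. The summed level of 7 NK cell markers was 98.8 to 120 CPM in Ncr1+/+ and 136 to 210.5 CPM in Ncr1gfp/gfp libraries. Of these, 5 could be tested and only *Itgam* was called, higher at 43.2 to 58.8 CPM in Ncr1+/+ and 76.0 to 121 CPM in Ncr1gfp/gfp libraries. Without *Itgam* the sums overlapped, at 46.5 to 60.9 and 53.9 to 89.2 CPM. *Eomes*, a defining factor of NK cells, was at 5.85 to 8.35 CPM in Ncr1+/+ and 5.06 to 17.6 CPM in Ncr1gfp/gfp libraries, *S1pr5* had a log2 fold change of -0.30, and *Klra4* was at 0 in every library. Whether these RNAs came from other cells or from the ILC1s themselves was not tested, nor was any part of other cells in the PIM values. The lists for B cells, hepatocytes, Kupffer cells and monocytes, and endothelium had 0 called genes and overlapped between the genotypes. Tested in these lists were 1 of 4, 3 of 8, 6 of 7 and 2 of 5 genes. Most of the hepatocyte sum was *Trf*, at 119.7 to 146.2 CPM over the libraries, and most of the endothelial sum *Pecam1*, at 111.5 to 149.2 CPM.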

How the data were processed

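RNA-seq of 10 libraries of sorted liver ILC1s was analysed. By the study's methods, the authors made cDNA from 2 ng of RNA with a SMART-Seq v4 kit, sequenced single reads of 51 cycles, trimmed them with Trimmomatic and FASTP, mapped them with STAR to a genome given as mm10 and counted reads per gene with HTSeq at default parameters. The authors deposited whole-number counts without normalization for 24564 genes, with exon lengths. HTSeq's defaults use strand and skip reads with more than 1 location.

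From the counts, genes were filtered with filterByExpr (11463 kept), TMM-normalized and compared by genotype in edgeR 4.0.16 (R 4.3.3, quasi-likelihood F-test), with Benjamini-Hochberg adjustment over all tested genes. Standard errors were derived from the F statistic. Called genes passed both limits of the study's methods, 0.05 on the adjusted p and 1.5 or 0.7 on the fold. Level differences and correlations of the members had exact permutation tests, two-sided. Alternatives were DESeq2 1.42.0, limma-voom (limma 3.58.1, sample weights), other normalizations and filters, the adjusted p alone, *Xist* as a covariate, a replicate block and leaving out each library. Of these steps, only the edgeR fit and its calls were tested on simulated data.

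The members and gene lists were chosen with earlier results of these data known. Named were the PIM genes, *Ncr1*, called genes and the extremes of each list, and the 5 genes most like each member. Libraries of a genotype differed by more than sampling noise (chi-square per gene 9.21 to 24.1 in 20 pairs), and nothing states that they are from separate mice, so that p-values measure the spread between these libraries. Limits from 3 counts cover counting error only. No table of sequences was used here, and none is printed.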

Additional observations from a re-analysis of the deposited data

Results flagged for a closer look

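In 62 groups of 5 libraries, the highest and the lowest library were examined by their distance from the next library as a share of the whole range. The limit was 0.71 and was passed by 3 groups, where chance gives about 3.1. *Pim1* was at 233 CPM in Ncr1gfp/gfp replicate 2, against 259 CPM in the nearest Ncr1gfp/gfp library, and without this library its log2 fold change was -0.34. The summed level of the 8 hepatocyte markers was 207 CPM in Ncr1gfp/gfp replicate 3, against 146 CPM in the next library of that genotype, and 179 CPM in Ncr1+/+ replicate 1, against 146 CPM in the next. Without Ncr1gfp/gfp replicate 3, the log2 fold changes of *Pim1*, *Pim2* and *Pim3* were -0.39, -0.70 and -0.03, and without Ncr1+/+ replicate 1 they were -0.37, -0.79 and -0.10.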

How the results depend on the processing

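Over 18 alternative fits, the log2 fold changes were -0.42 to -0.33 for *Pim1*, -0.83 to -0.61 for *Pim2* and -0.25 to 0.01 for *Pim3*. They come from the contrast on which the family was chosen and are no sign of stability. The number of genes called was 131 without a filter on low counts, 128 with DESeq2, 155 with the adjusted p alone, and 60 to 98 with each library left out. Called NF-κB genes were 2 with *Xist* as a covariate, 1 with the adjusted p alone and 0 to 2 with a library left out, and called genes of PIM turnover were 0 with DESeq2, 0 with limma-voom and 0 to 1 with a library left out. The causes were not tested. Within 1 genotype, the level differences could not pass the test, since 5 libraries allow no p below 0.0625. For *Pim1* and *Pim2*, *Pim1* and *Pim3*, and *Pim2* and *Pim3* they were 1.27, 3.37 and 2.09 in Ncr1gfp/gfp and 0.91, 3.61 and 2.70 in Ncr1+/+ libraries.

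Same-numbered libraries did not deviate together (r between -0.02 and 0.04 over genes), and 1 of 10 libraries correlated best with its own number. With the replicate number as a block, 87 genes were called, and the log2 fold changes of *Pim1*, *Pim2* and *Pim3* were -0.37, -0.73 and -0.12. With the block, the correlation of *Pim1* and *Pim2* was 0.76 and that of *Pim1* and *Pim3* was 0.38. No p is given for them, since the block makes same-numbered libraries mirror images. Without the 2 libraries farthest from the median, *Pim1* and *Pim3* had 0.13 and *Pim2* and *Pim3* -0.19. With each library left out, *Pim1* and *Pim2* had 0.24 to 0.76, *Pim1* and *Pim3* -0.64 to -0.15 and *Pim2* and *Pim3* -0.13 to 0.23. The coefficients of variation with a library left out and the marker sums without their most abundant gene were chosen after seeing the data.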
